A study of Mus musculus with 24 samples.

Results

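Sham surgery is the control operation of the stroke model, and the ipsilateral and contralateral hemispheres of sham-operated mice were compared here over 6 pairs of microvessel libraries. The 12 sham libraries were chosen by their labels from the 24 of the series, 6 ipsilateral and 6 contralateral. All were from male C57BL/6J mice, 10 to 12 weeks old. In sham surgery the right common and external carotid arteries were ligated, and the monofilament was advanced to where the middle cerebral artery branches off and withdrawn at once, under isoflurane with buprenorphine. The hemispheres were taken 24 h or 7 days later from perfused animals, and each library was made from microvessels pooled from 3 hemispheres of the same kind. There were 3 pairs at each time point, a pair being the ipsilateral and contralateral libraries of 1 day with the same replicate number. The other 12 libraries came from mice with transient middle cerebral artery occlusion (tMCAO) in the same design and are used only for comparison. Cages were warmed after surgery, and food and saline were given according to each animal's need. The study excluded a sham-operated mouse that showed stroke symptoms. No unoperated mice are among these libraries. Ipsilateral was the right side in every pair, so effects of the operation and of right against left hemisphere cannot be told apart.

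Brain microvessels are tubes of endothelial cells joined by tight junctions, wrapped by pericytes or smooth muscle cells and covered by astrocyte endfeet. Together they form the blood-brain barrier, which is kept up by Wnt signals from the parenchyma and by a set of endothelial transporters. Endothelial cells sense blood flow and oxygen, and release vasoactive peptides, angiopoietins and matrix proteins when either changes. Isolated microvessels also carry pieces of the adjoining glia and neurons, and blood cells that stay in the lumen.

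The values are read counts per gene that the authors normalized between libraries, and totals in the sham libraries were between 15924780 and 17926434 normalized counts. Library pairs within the sham groups were correlated over genes with r between 0.972 and 0.987. The summed level of 18 endothelial markers was between 489184 and 706059 normalized counts, and that of 12 neuronal markers was 6155 to 12573. Cldn5, the main claudin of brain endothelium, held 43185 to 74690 normalized counts, and the glucose transporter gene Slc2a1 held 88230 to 209774. Markers of the labelled cell type were thus present in every library. More genes were detected ipsilaterally in 6 of 6 pairs, with means of 17042 and 16982 genes above 0 (exact sign-flip test over the pairs, two-sided p = 0.0312, the smallest p that 6 pairs allow).

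Of 15982 genes tested, 67 were called higher in the ipsilateral hemisphere (0.419%) and 4 lower (0.025%). A gene was called when the adjusted p of limma's paired fit was under 0.05 and the log2 difference was beyond 0.585, that is, 1.5-fold. On the log2 scale, the called increases were between 0.59 and 1.65, with a median of 0.74. Of the 67 genes, 64 were higher in all 6 pairs and 3 in 5 of 6. All 67 had a positive difference both at 24 h and at 7 days, which the choice over both times favours, and all were protein-coding. In 12 of them, every ipsilateral library was above every contralateral one, which was so in 0.282% of all genes (45 genes), and below in 0.106% (17 genes). The plot of all genes shows a one-sided set of calls. With the fold limit left out, 174 genes were higher (1.09%) and 148 lower (0.926%), so many decreases passed the test but were small. Most calls were lost when 1 pair was left out: 31 higher genes were called without pair 1 of 24 h, 1 without pair 2, 6 without pair 3 and 12 without pair 3 of 7 days. The 4 decreases became 2, 0 and 0 calls without pairs 1, 2 and 3 of 24 h, and 2 without pair 2 of 7 days.

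**Figure D1:**
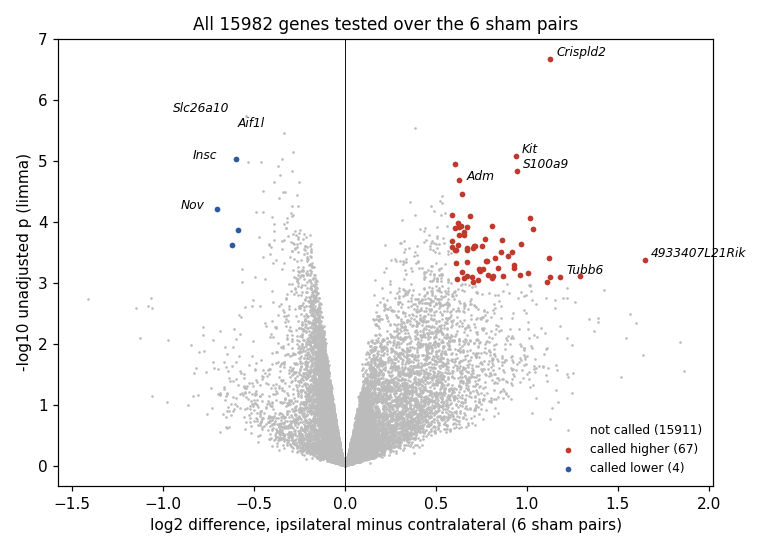
Each point is 1 of the 15982 genes tested. The x axis gives the log2 difference between ipsilateral and contralateral hemispheres over the 6 sham pairs, and the y axis -log10 of the unadjusted p from limma. The 67 genes called higher (red) lie right of the limit and the 4 called lower (blue) left of it, with Crispld2 at the top.

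Crispld2, a secreted protein with an LCCL domain (ENSMUSG00000031825, chromosome 8 from 119992438 to 120052793, mm10), had the smallest p of all genes. At 24 h its normalized counts were 1729, 1585 and 1944 in the contralateral libraries of pairs 1, 2 and 3, and 2866, 3056 and 5242 in the ipsilateral ones. At 7 days they were 1624, 1513 and 1172 contralaterally and 3687, 2797 and 3523 ipsilaterally. The 6 ipsilateral values were all above the 6 contralateral values. The means were 3528 ± 912 (SD, n = 6) and 1594 ± 256 (SD, n = 6), a log2 difference of 1.13 (standard error 0.098, limma adjusted p = 0.00341). Crispld2 was called with each of the 6 pairs left out in turn, and was the 1 gene still called without pair 2 of 24 h. After tMCAO the log2 difference of Crispld2 between the hemispheres was 1.11 at 24 h (adjusted p = 0.000927) and 0.15 at 7 days (adjusted p = 0.652).

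A group of the called genes encodes secreted or vascular signalling proteins. These groups were formed after the values were seen, from what the genes are known for, and are descriptions. The 13 genes of this group had log2 differences from 0.61 to 1.13, with a median of 0.86 at 24 h and 0.61 at 7 days.

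Kit, the receptor of stem cell factor (ENSMUSG00000005672, chromosome 5 from 75574916 to 75656722), was at 79, 105 and 106 normalized counts contralaterally and 167, 190 and 236 ipsilaterally in the 3 pairs of 24 h. At 7 days it was at 140, 106 and 147 contralaterally and 302, 128 and 337 ipsilaterally. Each pair rose, by least in pair 2 of 7 days, whose ipsilateral value was within the contralateral range. The log2 difference of Kit was 0.94 (standard error 0.12, adjusted p = 0.0163).

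Adm encodes adrenomedullin, a vasodilator peptide induced by low oxygen (ENSMUSG00000030790, chromosome 7 from 110627661 to 110629820). Its contralateral values were 579, 505 and 860 at 24 h and 1001, 203 and 1248 at 7 days, against 1096, 781 and 1706, and 1409, 239 and 1766 ipsilaterally. Levels differed up to several fold between pairs, and within every pair the ipsilateral library was the higher one. The log2 difference of Adm was 0.63 (standard error 0.088, adjusted p = 0.0195), with 0.84 at 24 h and 0.41 at 7 days.

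Angpt2, the ligand that destabilizes vessels through the receptor Tek (ENSMUSG00000031465, chromosome 8 from 18690263 to 18741562), followed the pairs in the same way. It was at 1342, 1248 and 1565 contralaterally and 2010, 1921 and 4025 ipsilaterally at 24 h, and at 1870, 710 and 2607 against 2711, 819 and 4542 at 7 days. The log2 difference of Angpt2 was 0.68 (standard error 0.11, adjusted p = 0.0298). Apln, the tip cell peptide apelin, had a difference of 0.71 (adjusted p = 0.0324) and Stc1, the glycoprotein stanniocalcin 1, of 0.73 (adjusted p = 0.0471). Pi15, a secreted protease inhibitor, was higher in 6 of 6 pairs by 1.02 on the log2 scale (adjusted p = 0.0298). Col8a1, a short-chain collagen of vessel walls, was higher by 0.64 (adjusted p = 0.0249). Col9a2 and Col11a2 were the other collagens called, out of 37 tested (0.419% of all genes were called higher). Of the 37, 31 had a positive and 6 a negative difference. Col14a1 was lower in 6 of 6 pairs and passed the test below the fold limit (-0.49, adjusted p = 0.0298).

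The 250 bases before the transcription start of Crispld2 and Adm are shown, since these are the 2 secreted products with the smallest p in this group whose start is listed once in the promoter table. They are from RefSeq on GRCm38.p6, plus strand, at chr8:119992188-119992437 and chr7:110627407-110627656. Capitals mark the hypoxia-response core, ACGTG or GCGTG on either strand, overlapping matches included.
Crispld2: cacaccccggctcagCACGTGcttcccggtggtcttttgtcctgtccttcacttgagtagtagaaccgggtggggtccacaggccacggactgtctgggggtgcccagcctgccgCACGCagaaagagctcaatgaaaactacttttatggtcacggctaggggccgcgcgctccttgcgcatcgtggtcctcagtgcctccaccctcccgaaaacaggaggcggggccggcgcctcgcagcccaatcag
Adm: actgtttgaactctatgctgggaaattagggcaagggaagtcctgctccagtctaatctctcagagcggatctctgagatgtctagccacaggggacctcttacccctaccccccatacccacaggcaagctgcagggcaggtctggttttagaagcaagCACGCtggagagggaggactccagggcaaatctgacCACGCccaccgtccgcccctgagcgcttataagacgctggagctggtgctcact
The Crispld2 stretch holds 3 matches, 2 of them overlapping in CACGTG, and the Adm stretch holds 2. At least 1 such match was in the 250 bases of 41.5% of all 27025 genes with a listed promoter, of 25 of the 49 called genes that have one (51%), and of all 13 matched genes of the hypoxia and glycolysis list. The matches are letters in a window and say nothing about binding.

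The hypoxia and glycolysis list had 15 genes tested, of which 4 were higher in all 6 pairs and 0 lower (all genes 4.64% and 6.79%), with a median log2 difference of 0.19 against -0.007 over all genes. The 4 were Vegfa, the main angiogenic growth factor (0.47, adjusted p = 0.0785), the glucose transporter gene Slc2a3 (0.53, adjusted p = 0.0422), Pfkfb3, an activator of glycolysis (0.36, adjusted p = 0.105), and Adm. The enzymes Ldha, Eno1 and Pgk1 had differences of 0.11, 0.06 and 0.19 and did not pass. In the list of angiogenesis and tip cell genes, 7 of 16 were higher in all 6 pairs and 1 was lower. Of these, the Notch ligand gene Dll4 (0.32, adjusted p = 0.0394) and the chemokine receptor gene Cxcr4 (0.54, adjusted p = 0.0324) passed the test beside Angpt2 and Apln. The vascular endothelial growth factor receptors Flt1 and Kdr had differences of 0.02 and -0.05. Tek, the angiopoietin receptor, was the lower one, at 10860 to 18434 normalized counts contralaterally and 8720 to 17246 ipsilaterally (log2 difference -0.25, adjusted p = 0.0324). The median of the hypoxia list was highest in pair 3 of 24 h (0.43) and pair 3 of 7 days (0.40), and it was between 0.01 and 0.12 in the other 4 pairs.

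**Figure D2:**
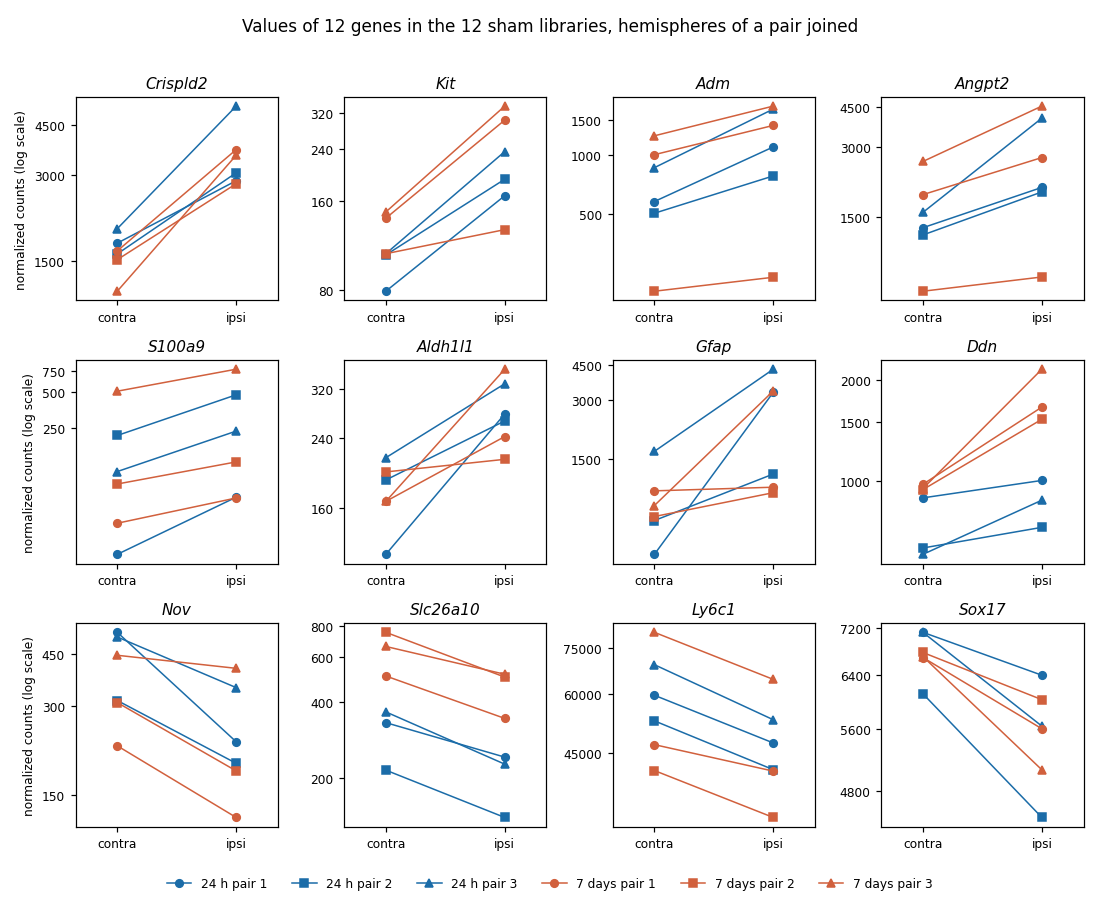
Normalized counts of 12 genes in the 12 sham libraries, on log axes, with the contralateral and ipsilateral library of a pair joined by a line. Colours mark the time point and symbols the pair. Crispld2 separates the hemispheres completely. Adm and S100a9 differ more between pairs than between hemispheres but rise in every pair, and Nov, Slc26a10, Ly6c1 and Sox17 fall in every pair.

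Of the genes called higher, 8 are known from leukocytes, a group formed after the values were seen. S100a9, a subunit of calprotectin from neutrophils and monocytes (ENSMUSG00000056071, chromosome 3 from 90692632 to 90695721), was at 22, 216 and 108 normalized counts contralaterally and 66, 472 and 235 ipsilaterally at 24 h. At 7 days it was at 40, 85 and 506 contralaterally and 65, 130 and 772 ipsilaterally. Pairs ranged widely, and each ipsilateral library was above its partner. The log2 difference of S100a9 was 0.95 (standard error 0.13, adjusted p = 0.0168), being 1.26 at 24 h (adjusted p = 0.0146) and 0.63 at 7 days (adjusted p = 0.198). Its partner subunit S100a8 had a difference of 0.76 (adjusted p = 0.043), and Hp, the haemoglobin-binding plasma protein haptoglobin that neutrophils also carry, of 0.75 (adjusted p = 0.0324). Further called genes were Spn, the leukocyte sialoglycoprotein (0.86), Csf2rb2, a beta chain of cytokine receptors (0.79), Cytip, a regulator of leukocyte adhesion (0.97), the B cell receptor modulator Cd72 (1.29, with at most 18 normalized counts in a library) and the TNF family ligand Tnfsf8 (1.03). Coro1a, an actin regulator of leukocytes, was higher in 6 of 6 pairs by 0.53 (adjusted p = 0.0275) and stayed under the fold limit.

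Of 12 tested markers of neutrophils and monocytes, 4 were higher in all 6 pairs and 0 lower (all genes 4.64% and 6.79%). Their median log2 difference was 0.49. The summed level of the list was 379 to 2066 normalized counts ipsilaterally and 290 to 1576 contralaterally, higher in 6 of 6 pairs, and Ly6g and Camp were below the limit for testing. S100a8 and S100a9 were the 2 of the list that passed. The monocyte genes Ccr2 and Ly6c2 had differences of 0.45 and -0.22, and Ltf, the neutrophil granule protein lactoferrin, had -0.49 with lower values in 5 of 6 pairs; none of these passed. Of 4 tested T cell markers, 0 were higher in all 6 pairs, with a median of 0.19 and a summed level higher in 3 of 6 pairs. Of 6 B cell markers, 0 were higher in all 6 pairs and 0 passed, with a median of 0.36 and a summed level of 36 to 92 normalized counts ipsilaterally and 28 to 78 contralaterally, higher in 6 of 6 pairs. Haemoglobin genes, which mark red blood cells left after perfusion, ran in the same direction at 24 h: Hbb-bs rose from 247, 2734 and 3461 to 644, 7279 and 6077 normalized counts (log2 difference 1.20, adjusted p = 0.0216). At 7 days Hbb-bs was at 8924, 29551 and 32282 contralaterally and 12619, 25045 and 41919 ipsilaterally (0.21, adjusted p = 0.609). Hba-a1 and Hbb-bt were also called at 24 h (1.27 and 1.08), and near-identical globin copies may share reads. The part of retained blood in the leukocyte values was not tested.

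The summed level of astrocyte markers was higher ipsilaterally in 6 of 6 pairs, at 17638 to 36350 normalized counts against 15794 to 18454. Of 12 tested, 9 were higher in all 6 pairs and 0 lower (all genes 4.64% and 6.79%). As higher, 6 passed the test (all genes 1.09%), and the median log2 difference was 0.50. Gfap, the intermediate filament of astrocytes, had the largest difference of the list, 1.22, with adjusted p = 0.054. It was at 489, 727 and 1637 normalized counts contralaterally and 3276, 1255 and 4292 ipsilaterally at 24 h, and at 1030, 762 and 867 against 1075, 1008 and 3327 at 7 days. The difference of Gfap was thus carried by pairs 1 and 3 of 24 h and pair 3 of 7 days. Aldh1l1, the folate enzyme used as a pan-astrocyte marker, was called (0.67, standard error 0.13, adjusted p = 0.0324), with 122 to 214 normalized counts contralaterally and 212 to 358 ipsilaterally. The gap junction gene Gja1 (0.47, adjusted p = 0.0431), S100b (0.46), Aldoc (0.56), Gjb6 (0.27) and Mlc1 (0.52) passed the test below the fold limit. Aqp4, the water channel of the endfeet, had a difference of 0.90 and did not pass (adjusted p = 0.101). The called genes also included 8 others that astrocytes are known to express, which were Gpr37l1 (0.81), Mmd2 (0.71), Ntsr2 (0.70), Gldc (0.74), Acsbg1 (0.63), Mt3 (0.61), Etnppl (0.59) and the radial glial lipid carrier Fabp7 (0.78). In bulk RNA, more cells or cell fragments of a type and more RNA per cell cannot be told apart.

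Neuronal and myelin RNA moved with these genes in some pairs. Over 41 markers of astrocytes, neurons, oligodendrocytes and their precursors, the mean log2 difference was 0.87, 0.57 and 0.25 in the 3 pairs of 24 h. It was 0.01, 0.02 and 1.01 in those of 7 days. Of 12 neuronal markers, 1 was higher and 1 lower in all 6 pairs (all genes 4.64% and 6.79%), and 0 passed the test as higher. The 1 that passed was lower: Stmn2, a microtubule regulator of growing neurites (log2 difference -0.39, adjusted p = 0.0195). The median neuronal difference was 0.39, but it was between -0.12 and 0.07 in 3 of the 6 pairs. The oligodendrocyte list had a median of 0.42 with 0 of 10 genes higher in all 6 pairs, and the precursor list one of 0.45 with 4 of 7 genes higher in all 6. Called genes known from neurons, grouped after their values were seen, were Ddn, the postsynaptic protein dendrin (0.59), the channel subunit genes Cacng3 (0.67) and Kcnh1 (0.84), Jph3 (0.62), Caly (0.64), Nyap1 (0.62), Apba2 (0.66) and Sphkap (0.65). With pair 1 of 24 h and pair 3 of 7 days left out, the 2 pairs with the largest mean of the 41 markers, 6 genes were called higher and 3 lower. With the mean of these markers as a covariate, 0 genes were called in either direction, and the log2 difference of Crispld2 was 1.08 with an adjusted p of 0.0852, against 1.13 without the covariate. The part of parenchymal RNA in the calls, Crispld2 included, was not tested.

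**Figure D3:**
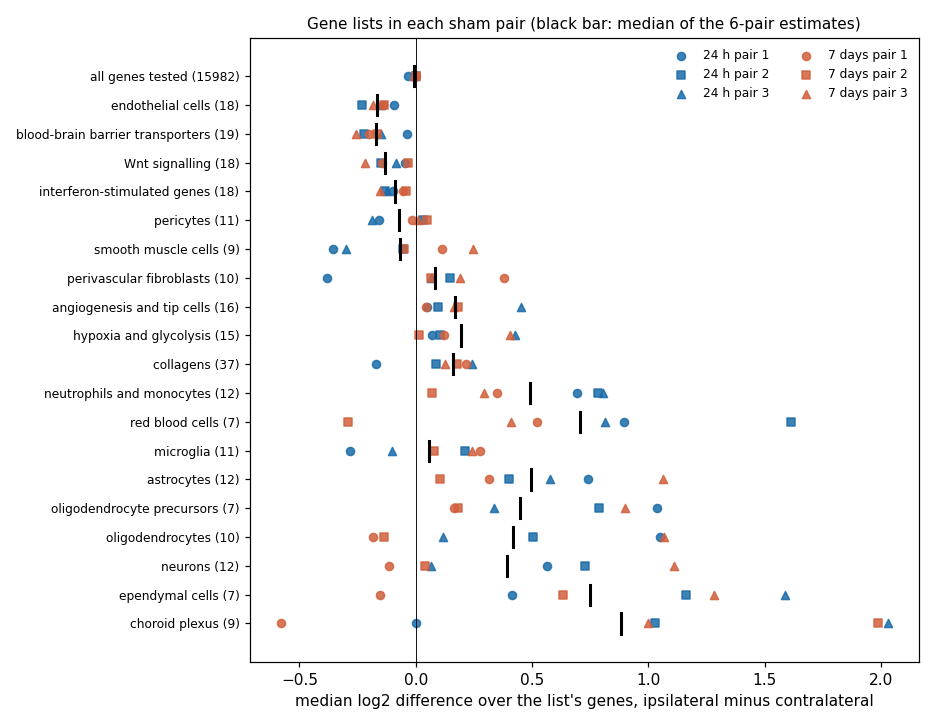
Median log2 difference, ipsilateral minus contralateral, of each gene list in each of the 6 sham pairs (points) and over the 6 pairs (black bars), with the number of genes tested in brackets. Endothelial and transporter genes lie left of 0 in every pair, astrocyte genes right of 0 in every pair, and the neuronal, oligodendrocyte and choroid plexus lists range from below 0 to above 1.

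A share of endothelial genes was slightly lower in the ipsilateral hemisphere. Of 18 endothelial markers, 4 passed the test as lower and 0 as higher (all genes 0.926% and 1.09%). In all 6 pairs, 10 were lower and 0 higher (all genes 6.79% and 4.64%). The median log2 difference of the list was -0.17, and its summed level was lower in 6 of 6 pairs. The median was between -0.23 and -0.09 in the single pairs. Ly6c1, a surface protein of brain endothelium (ENSMUSG00000079018, chromosome 15 from 75044018 to 75048830), was at 59561, 52600 and 69097 normalized counts contralaterally and 47241, 41495 and 52879 ipsilaterally at 24 h. At 7 days it was at 46860, 41322 and 80855 against 41205, 32900 and 64328. It was lower within every pair while the pairs overlapped, by 0.32 on the log2 scale (standard error 0.053, adjusted p = 0.0324). Sox17, a transcription factor of arterial and barrier endothelium, had a difference of -0.30 (adjusted p = 0.0298) and Itm2a, a membrane protein of brain endothelium, of -0.32 (adjusted p = 0.0324). Cldn5, Pecam1 and Slc2a1 had differences of -0.17, -0.09 and -0.09 and did not pass, and the junction genes Cdh5 and Esam had 0.06 and -0.01. Tight and adherens junction genes as a list had a median of -0.01, with 3 of 17 lower in all 6 pairs. The list of endothelial activation and leukocyte adhesion genes ran the other way, with a median of 0.43. Of its 16 genes tested, 14 had a positive and 2 a negative difference, 1 was called higher and 0 were higher in all 6 pairs. Its median ranged from -0.33 to 1.08 in the single pairs.

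Transporters of the barrier shared the direction of the endothelial markers, and the lists overlap, with Abcb1a in both. Of 19 tested, 8 were lower in all 6 pairs and 0 higher (all genes 6.79% and 4.64%), with a median of -0.17. The taurine transporter gene Slc6a6 went from 22335 to 39156 normalized counts contralaterally to 15028 to 32138 ipsilaterally (log2 difference -0.35, adjusted p = 0.0324). The efflux pump gene Abcg2 had a difference of -0.23 (adjusted p = 0.0324) and the thiamine transporter gene Slc19a3 of -0.24 (adjusted p = 0.0453). Abcb1a, the P-glycoprotein pump, was lower in 6 of 6 pairs without passing (-0.22, adjusted p = 0.0839). In the Wnt signalling list 8 of 18 genes were lower in all 6 pairs and 1 higher. The 8 included the receptor gene Fzd4 (-0.18), its co-activator Tspan12 (-0.13) and the target gene Apcdd1 (-0.16), of which none passed. Sox17, which is also in the endothelial list, was among them. The higher one was Wnt7b, a parenchymal ligand for barrier endothelium, at 42 to 66 normalized counts contralaterally and 57 to 146 ipsilaterally (0.82, adjusted p = 0.0454). In the shear stress list, 7 of 13 genes had a positive and 6 a negative difference, 2 passed as lower and 0 as higher, and the median was 0.05. Klf4 was lower in 5 of 6 pairs (-0.42, adjusted p = 0.0324), Cav1 in 6 of 6 (-0.23, adjusted p = 0.0324) and Klf2 in 6 of 6 without passing (-0.30, adjusted p = 0.0561), while Nos3 had a difference of -0.05 and Adamts1, the largest on the positive side, one of 0.41 (adjusted p = 0.224). The chemokine gene Cxcl12 was at 17228 to 30793 normalized counts contralaterally and 13407 to 22705 ipsilaterally (-0.39, adjusted p = 0.0324). Of 18 interferon-stimulated genes, 4 were lower in all 6 pairs and 0 higher, with a median of -0.09.

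The decreases beyond the fold limit were few. Nov, a matricellular CCN protein (ENSMUSG00000037362, chromosome 15 from 54745702 to 54754039), was at 532, 313 and 513 normalized counts contralaterally and 227, 192 and 346 ipsilaterally at 24 h. At 7 days Nov was at 220, 308 and 445 against 126, 181 and 402. It fell in every pair, by 0.70 on the log2 scale (standard error 0.11, adjusted p = 0.0298), and by least in pair 3 of 7 days. Insc, an adaptor of spindle orientation, fell by 0.60 (adjusted p = 0.0163), the small membrane protein gene Smim5 by 0.62 (adjusted p = 0.0324) and the gene model Gm9946 by 0.59 (adjusted p = 0.0324).

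Among the decreases with the smallest p, most were under the fold limit. Slc26a10, of the SLC26 anion transporter family (ENSMUSG00000040441, chromosome 10 from 127171511 to 127180645), had the smallest p among the lower genes. It was at 330, 214 and 364 normalized counts contralaterally and 241, 139 and 226 ipsilaterally at 24 h, and at 505, 752 and 661 against 343, 500 and 513 at 7 days. Its levels were higher at 7 days on both sides, and the difference stayed between -0.69 and -0.36 in the 6 pairs (log2 difference -0.54, standard error 0.059, adjusted p = 0.0138). Also lower in 6 of 6 pairs were the actin-binding protein gene Aif1l (-0.34), the sphingosine-1-phosphate phosphatase gene Sgpp2 (-0.29) and the scaffold gene Slc9a3r2 (-0.34), along with Rhpn2 (-0.46), Prrt4 (-0.54), the semaphorin gene Sema3c (-0.37), Tgfb2 (-0.29) and Gpr155 (-0.36), each with an adjusted p between 0.0138 and 0.0182. Sema3c, for example, was at 8860 to 12155 normalized counts contralaterally and 6837 to 10087 ipsilaterally. Among the smallest p on the other side were Gkn3 (0.38, adjusted p = 0.0138), an arterial secreted protein, Nnat (0.60, adjusted p = 0.0163), Kif5a, a neuronal kinesin (0.53, adjusted p = 0.0249), and Glipr2 (0.36, adjusted p = 0.0275). Without pair 2 of 24 h none of these genes passed the test, each with an adjusted p of 0.125 and its direction kept.

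The increases with the largest log2 differences were mostly of low genes. They included 4933407L21Rik (1.65), Adamts17 (1.13), Gm10309 (1.12), Ltk (1.01), Asb16 (0.96), P2rx5 (0.93) and Prcd (0.93), whose means were at most 59.3 normalized counts ipsilaterally, and 7 of the 67 called genes had a mean under 20. Nr4a3, an orphan nuclear receptor of the immediate early type, was higher by 1.11 (adjusted p = 0.0486), with 1130 normalized counts in the ipsilateral library of pair 3 of 24 h and 790 in that of pair 3 of 7 days against 115 to 283 in the other 10 libraries. Tubb6, a beta-tubulin, rose in 5 of 6 pairs by 1.18 (adjusted p = 0.0467), and reached 4269 normalized counts in the ipsilateral library of pair 3 of 7 days.

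Considered by time point, 11 genes were called at 24 h (8 higher and 3 lower, 0.0688%) and 7 at 7 days (all higher, 0.0438%), with 1831 and 1817 genes at an unadjusted p under 0.05. At 24 h the 3 decreases were Pi16, a secreted peptidase inhibitor family member, from 598, 513 and 645 to 402, 337 and 417 normalized counts (log2 difference -0.60, adjusted p = 0.0216), Asb2 (-0.60) and the phosphoinositide phosphatase gene Inpp4b (-0.59). At 7 days the difference of Pi16 was -0.11 (adjusted p = 0.617). The 7 calls of 7 days were Crispld2 (1.22), Igfbp4, a binding protein of insulin-like growth factors (0.95), Slc45a4 (0.93), the C1q and TNF related gene C1qtnf1 (0.89), Ddn (0.88), Kif5a (0.75) and the kinesin gene Kifc2 (0.69). Igfbp4 went from 5055, 4717 and 3873 to 10553, 6741 and 9291 normalized counts at 7 days, and from 8297, 12035 and 9148 to 8218, 13363 and 11993 at 24 h (0.18, adjusted p = 0.62). In limma's test of the difference between the time points themselves, 0 genes were called (0%), and 402 had an unadjusted p under 0.05. The smallest among the genes named here was that of Hbb-bs (unadjusted p = 0.000687). Without any 1 of the 3 pairs of 24 h, 0 genes were called at 24 h, and the 7 calls of 7 days became 0, 14 and 5 without pairs 1, 2 and 3.

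The 2 time points came from different mice, and their differences ran the same way more often than all genes did. Of the 2350 genes higher in all 3 pairs at 24 h, 31.5% were higher in all 3 at 7 days and 2.94% lower, against 14.7% and 15.2% of all genes. Of the 3120 lower at 24 h, 34.8% were lower at 7 days. Across genes, the log2 differences of the 2 time points had r = 0.42 and rho = 0.461 (15982 genes, which share libraries and are not independent). Between single pairs, r was highest with pair 3 of 7 days, at 0.275, 0.315 and 0.302 for pairs 1, 2 and 3 of 24 h. It was -0.041, 0.056 and 0.152 with pair 1 of 7 days, and 0.076, 0.141 and 0.216 with pair 2. In the 67 genes called higher, chosen from both times together, the median increase was 0.82 at 24 h and 0.69 at 7 days.

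**Figure D4:**
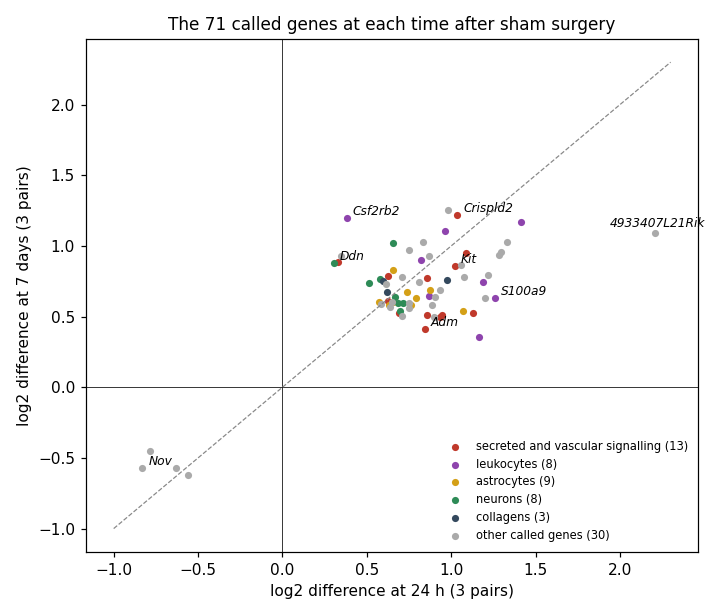
Log2 difference, ipsilateral minus contralateral, of the 71 called genes over the 3 sham pairs of 24 h (x axis) and the 3 of 7 days (y axis), coloured by what the genes are known for, with equal values on the dashed line. All 67 called increases lie above 0 at both times and the 4 decreases below 0 at both, and S100a9 and Adm lie toward 24 h while Ddn and Csf2rb2 lie toward 7 days.

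The sham differences were small beside those after tMCAO, whose libraries are other mice. Over the 10953 genes with a mean of at least 100 normalized counts, the SD of the log2 difference between hemispheres was 0.201 to 0.363 in the 6 sham pairs and 0.476 to 0.86 in the 6 tMCAO pairs. The share of these genes beyond 1.5-fold was 1.11% to 8.54% and 8.87% to 23.5%. After tMCAO, 10.1% of all genes tested were called higher ipsilaterally and 6.96% lower at 24 h, and 4.26% and 11.1% at 7 days. Of the 67 genes called higher after sham surgery, 26 were called higher and 4 lower 24 h after tMCAO, and 12 higher and 31 lower at 7 days.

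The groups, formed after the values were seen, differed in this. All 8 leukocyte genes were called higher 24 h after tMCAO and 7 of 8 at 7 days, with median log2 differences of 2.34 and 1.47. Among the 13 signalling genes, 10 were called higher at 24 h (median 1.11) and 3 higher and 2 lower at 7 days (median 0.02). The increase of Apln was 3.65 at 24 h and 1.02 at 7 days after tMCAO, that of Angpt2 was 1.88, followed by -0.15 at 7 days (adjusted p = 0.726), and that of Adm was 0.59 and then 0.08 (adjusted p = 0.787). Kit had 1.97 and 1.65, both called. Of the 9 astrocyte genes, 0 were called higher at either time and 7 were lower at 7 days (median -1.38). The 8 neuronal genes were all lower at 7 days (median -2.40). Ddn, for example, had -1.70 at 24 h and -2.41 at 7 days after tMCAO against 0.59 after sham surgery. Another 26 called increases were in no group. Of these, 7 were called higher and 2 lower 24 h after tMCAO, and 2 higher and 13 lower at 7 days. Of the 3 collagens, 1 was called higher at 24 h and 1 lower at 7 days. Of the decreases, Nov was also lower after tMCAO at 24 h (-1.11, adjusted p = 0.00207) and 7 days (-1.27, adjusted p = 0.00142).

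**Figure D5:**
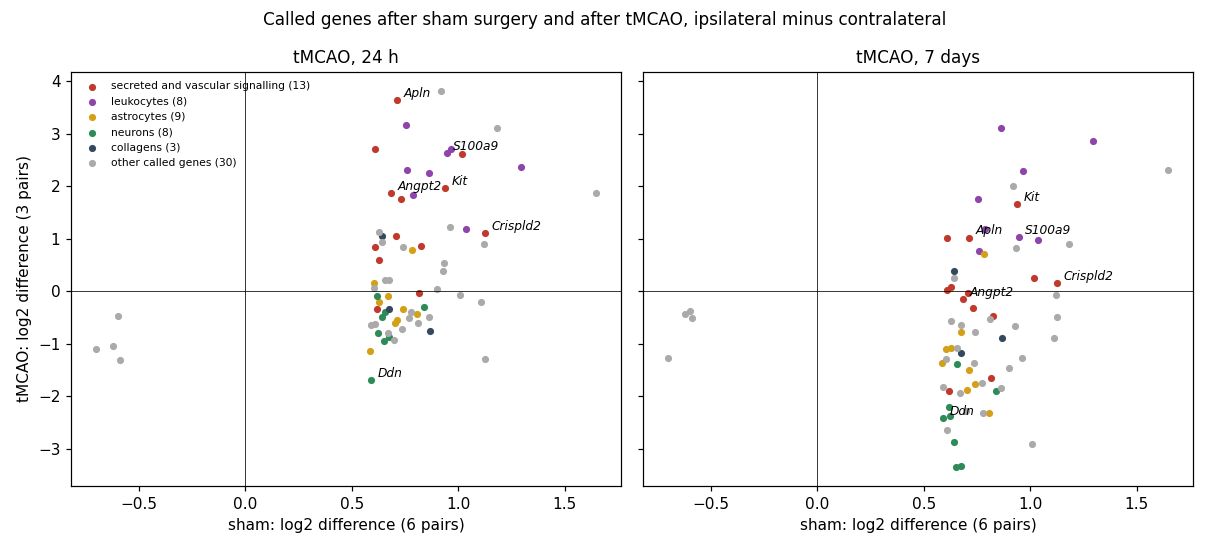
Log2 difference between hemispheres of the 71 called genes after sham surgery (x axis, 6 pairs) and after tMCAO (y axis, 3 pairs) at 24 h and 7 days, coloured by what the genes are known for. Leukocyte genes lie above 0 in both tMCAO panels, signalling genes such as Apln and Angpt2 drop from 24 h to 7 days, and neuronal genes such as Ddn lie below 0 at 7 days.

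In the test of the tMCAO difference minus the sham difference, 1869 genes were called at 24 h (11.7%) and 1952 at 7 days (12.2%). For the 67 genes this was 10 higher and 12 lower at 24 h and 3 higher and 37 lower at 7 days, but they were chosen on the sham libraries that enter it, so nothing is read from these counts. Leaving out single pairs gave 1036 to 2522 calls at 7 days, the fewest without sham pair 3 and the most without tMCAO pair 3.

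The medians of the core clock, heat shock, glucocorticoid response, basement membrane, antigen presentation and cytosolic ribosomal protein lists were between -0.004 and 0.019. Pericyte and smooth muscle genes had medians of -0.07 each, with Kcnj8, a potassium channel gene of pericytes, higher in 6 of 6 pairs (0.32, adjusted p = 0.0314), and microglial genes one of 0.06. The choroid plexus list had the highest median, 0.88, with 0 of 9 genes higher in all 6 pairs: Ttr, the transthyretin made there, went from 2412 to 41652 normalized counts contralaterally to 4839 to 70672 ipsilaterally and was lower in 2 pairs.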

How the data were processed

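RNA from isolated brain microvessels was sequenced from TruSeq Stranded mRNA libraries. Per the labels' processing notes, the authors used STAR 2.5.2b, featureCounts 1.5.1, DESeq2 1.6.2 and the build mm10 (GRCm38). The values are scores: the deposited table holds counts that the authors normalized with DESeq2 and rounded to whole numbers, for 17270 genes in 24 libraries, after leaving out libraries they judged outliers. Raw reads were not used here, so no count model was run; estimated depths of the sham libraries were 15067532 to 20029096 reads, from the steps between low values, with a largest error of 6.28% in the size factor over 6 simulated libraries.

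Genes with a mean above 5 over the 24 libraries were kept (15982). log2(value + 1) was fitted with limma 3.58.1 (R 4.3.3) with a mean-variance trend and the pair as a block, over the 12 sham libraries, with Benjamini-Hochberg adjustment over all genes. All log2 differences are on this scale, which understates the change of low genes. The tMCAO values came from a fit of all 24 libraries with the pair as a block. The labels do not say that libraries of 1 number are from the same mice. The numbers were taken to pair them because same-numbered libraries deviated together in every pair (r from 0.145 to 0.467, against -0.461 to 0.037 between numbers). Values were centred on the mean of each group first, which pushes values between numbers below 0 where those within numbers are positive. Replicates are pools of 3 hemispheres. Alternatives were another pseudocount, filter, centring or normalization, no block, all 24 libraries, robust moderation, no fold limit and each pair left out; a length and GC correction and neural markers as a covariate were chosen after seeing the data.

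Genes were picked by a rule, and not all genes so picked are described above. The rule took the 15 largest called increases and the called decreases (up to 15) among genes with the same direction in all 6 pairs. It also took the 10 smallest p in each direction with a mean of at least 20 and the calls of each time point (up to 5 in each direction where over 10). The extremes of each list and the genes the study names were included. Other genes were added after their values were seen. The libraries, gene lists and rules were chosen with earlier results of these data known. On simulated pairs (15982 genes, 200 changed), 85% of 100 changes of 0.75 and 93% of 100 changes of 1.5 on the log2 scale were called, with 1 false call. The simulated noise was independent between genes, and each change was equal in all pairs. Shifts shared by many genes within a pair, as in the neural markers, were not simulated. These rates are therefore not error rates of the calls above. Promoters were from RefSeq.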

Additional observations from a re-analysis of the deposited data

Results flagged for a closer look

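Among the values of named genes and lists over the 6 sham pairs, 104 were examined for a single pair far from the others, and 4 were found; chance gives about 1 in 20. Kit had a log2 difference of 0.27 in pair 2 of 7 days, below the other 5 pairs. The median of the angiogenesis and tip cell list was 0.451 in pair 3 of 24 h, above the others, and that of the antigen presentation list was 0.165 in pair 1 of 7 days. The collagen list was at -0.171 in pair 1 of 24 h, below the others.

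For 64 named genes, the hemisphere difference after tMCAO was compared with that after sham surgery in limma's fit of all 24 libraries, with adjustment over all genes, and 24 passed at 24 h and 15 at 7 days. At the same threshold, without the fold limit, 1942 of all 15982 genes tested passed as higher and 1163 as lower at 24 h. At 7 days, 699 passed as higher and 1672 as lower. Many of the 64 genes were chosen on the sham difference, which enters the comparison. At 24 h, the tMCAO difference exceeded the sham difference on the log2 scale in Pi15 (1.54), Cytip (1.52), S100a9 (1.37), Coro1a (1.47), Glipr2 (1.34), S100a8 (1.15), Igfbp4 (1.32), Timp1 (3.06), Mmp9 (2.21), Itgb2 (1.83), Itga5 (1.42) and Lcn2 (2.06). It was below the sham difference in Adamts17 (-2.59), Gkn3 (-0.72), Sgpp2 (-1.04), Rhpn2 (-0.47), Sema3c (-0.97), Tgfb2 (-0.75), Gpr155 (-0.50), Hbb-bs (-0.83), Ddn (-2), Pink1 (-0.55), Lrp6 (-0.65) and Ocln (-0.49). At 7 days it exceeded the sham difference in Cytip (1.55), Coro1a (0.79), Slc9a3r2 (0.42), Itgb2 (1.64), Itga5 (0.70) and Samhd1 (0.66), and it was below it in Crispld2 (-1.07), Nr4a3 (-1.84), Ltk (-3.70), Prcd (-1.45), Nnat (-1.85), Kif5a (-2.23), Kifc2 (-2.65), Ddn (-3.29) and Slc45a4 (-0.69).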

How the results depend on the processing

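The 67 called increases and 4 called decreases depended strongly on the processing. With no filter on low values 5 and 1 were called, with quantile normalization 18 increases, with all 24 libraries in the fit and the replicate block 8 and 1, and with no fold limit 174 and 148. Without the replicate block, that is, without the pairing, 1 gene was called higher, Crispld2, and 0 lower. Of the alternatives chosen after seeing the data, the correction for length and GC content gave 108 and 19, the neural marker mean as a covariate 0 and 0, and leaving out the 2 pairs with the largest neural difference 6 increases. Leaving out single pairs gave 1 to 68 increases and 0 to 4 decreases, with at most 32 of the 67 among them. The 11 calls of 24 h became 4 with no filter, 0 without the block, 1 with all libraries, 17 with no fold limit and 0 without any 1 pair. The 7 calls of 7 days became 1 with no filter, 4 with median centring, 0 without the block, 0 with all libraries and 0 to 14 without 1 pair. For tMCAO minus sham, 941 genes were called at 24 h without the block and 3105 with no fold limit, and 1036 to 2522 at 7 days without 1 pair. The cause of these changes was not tested.

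The endothelial median was -0.119 with quantile normalization and -0.257 with the length and GC correction. That correction also moved the basement membrane (-0.112), glucocorticoid (-0.095) and study gene (-0.152) lists. The neural covariate, which is built from the neuronal and oligodendrocyte lists, left these at -0.097 and -0.159, and the B cell (0.525), study gene (-0.009), glucocorticoid (0.123) and Wnt (-0.046) lists moved. The other 708 list medians moved by less than the spread between pairs. Of the values of single named genes, 1996 stayed on the same side of an adjusted p of 0.05. Another 428 no longer passed it and 36 newly passed it, with the fold limit not applied. Direction was checked only for genes that passed in the main fit, and 0 of their values reversed. The depth limits low genes most: Cd72 had at most 18 normalized counts in a library.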

Other observations

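The chemokine gene Ccl2 was at 82, 28 and 98 normalized counts contralaterally and 35, 40 and 904 ipsilaterally in the 3 pairs of 24 h, and at 27, 7 and 58 against 267, 15 and 1170 at 7 days (log2 difference 1.84, limma adjusted p = 0.111). It was higher in 5 of 6 pairs, by most in pair 3 of each time point and pair 1 of 7 days. Ccl7 (1.64, adjusted p = 0.137) and the cytokine gene Il6 (1.86, adjusted p = 0.176) did not pass either. Of 27 chemokine ligand genes, 1 was higher and 1 lower in all 6 pairs (all genes 4.64% and 6.79%). These genes were chosen after their values were seen.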
